A study of Homo sapiens with 6 samples.

Results

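The genes described here are the matrix metalloproteinases (MMP), the membrane-bound disintegrin metalloproteinases (ADAM), their secreted relatives with thrombospondin repeats (ADAMTS) and the tissue inhibitors of metalloproteinases (TIMP). They were taken from the gene table by symbol and by the biotype protein_coding, which gave 65 genes of 57905, of which 22 were MMP, 20 ADAM, 19 ADAMTS and 4 TIMP genes. *MMP12* carried the biotype processed_transcript in the table and was therefore not among them. The cells were RT4, an established wild-type human bladder cancer line, transfected for 48 h with 100 pmol of a universal negative control siRNA (Scramble) or with 100 pmol of an siRNA against *LEADR* (LEADR-KD). *LEADR* is a spliced transcript of *MIR205HG*, the host gene of miR-205, and the comparison asks which genes change when it is depleted. Poly(A) RNA was sequenced in 3 libraries per group, all from 1 cell line and 1 siRNA per group. The study's methods speak of biological replicates, whereas the labels name no separate cultures. The p-values therefore rest on the spread among these 6 libraries, which may be technical.

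MMPs are zinc-dependent endopeptidases that cut collagens, proteoglycans and other components of the extracellular matrix, and are made as inactive proenzymes. ADAMs sit in the plasma membrane and release the outer parts of growth factors, receptors and adhesion molecules, a step called ectodomain shedding. ADAMTS enzymes are secreted and bind to the matrix, and TIMPs are small secreted proteins that block the active sites of MMPs and of some ADAMs and ADAMTSs. In the urothelium and its tumours these families are best known for growth factor release and for degradation of the basement membrane.

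The siRNA is printed because its sequence was later searched for in the transcripts of these genes. The labels give the listed strand alone, which is 21 bases long. The complementary strand was derived here as its full-length complement. The labels do not say where that strand truly begins, so its seed is assumed. The capitals mark the seed, bases 2 to 8 from the 5′ end of each strand.
listed strand: aACUGGGUgcuuuauauagga
complementary strand: uCCUAUAUaaagcacccaguu

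Total counts per library ranged from 15706033 to 18960822. *MIR205HG* (ENSG00000230937, chromosome 1 from 209602165 to 209606183 in hg19), which holds the targeted transcript, had 511, 337 and 346 counts in Scramble and 113, 211 and 101 in LEADR-KD. Its level in CPM (counts scaled to library size by TMM) went from 22.7 ± 6.64 to 8.13 ± 3.08 (SD, n = 3), a log2 fold change of -1.47 ± 0.26 (SE) with an adjusted p of 0.00180 (edgeR's quasi-likelihood test). Of 14 urothelial and epithelial markers 13 were over 1 FPKM (fragments per kilobase of gene, scaled to library size) and none was at 0, with a summed level of 2021 to 2262 FPKM in Scramble and 2429 to 2653 in LEADR-KD. Of 9 fibroblast, 9 leukocyte and 4 endothelial markers, 6, 5 and 2 were at 0 in every library. The summed fibroblast level was 3.76 to 4.59 FPKM in Scramble and 2.58 to 3.74 in LEADR-KD, the leukocyte level 0.924 to 1.65 and 0.863 to 1.51, and the endothelial level 0.723 to 1.04 and 0.256 to 0.459. The urothelial sum was higher and the fibroblast and endothelial sums lower in LEADR-KD, without overlap between the groups, whereas the leukocyte sums overlapped. The fibroblast sums were barely apart, at 3.76 against 3.74 FPKM. *COL3A1*, which made up most of that sum, did not pass (log2 fold change -0.46, adjusted p = 0.0572, edgeR). *VWF*, which made up most of the endothelial sum, was lower with a log2 fold change of -1.16 (adjusted p = 0.00553, edgeR). The part of these markers in the results was not tested. The libraries numbered 1 held the largest share of mitochondrial counts in both groups, 11.9% in Scramble and 10.8% in LEADR-KD, against 3.06% to 5.73% in the other 4.

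Of the 65 genes 19 had no count in any library, 21 had some counts but too few to be tested, and 25 passed the filter on low counts. Among these 25, 6 were higher and 6 lower in LEADR-KD at an adjusted p under 0.05 (edgeR), and 13 did not pass. Over all 14178 genes tested, 12.2% were higher and 12.1% lower. With a fold over 2 as well, 0 of the 25 were higher and 3 lower (*ADAMTS7*, *ADAMTS13* and *ADAMTS19*), against 1.64% and 2.58% of all genes tested. *ADAMTS13* reached the level asked by the filter in the Scramble libraries alone, so its call is not independent of the filter, and at a mean of at least 1 CPM, where it was not tested, 5 were lower and 2 of them by a fold over 2. The count of 0 higher genes was also 0 by DESeq2 and by limma, and stayed 0 at an unadjusted p under 0.05 by each of these tools. The median log2 fold change of the 25 was 0.03, and that of all genes tested was -0.01. All 12 genes that passed had groups without overlap, which is not independent of the test. The share without overlap over all genes was not taken, so a lack of overlap, for genes or for family sums, is given as a description only. In bulk RNA a lower share of cells that express a gene cannot be told apart from less of its RNA per cell.

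**Figure D1:**
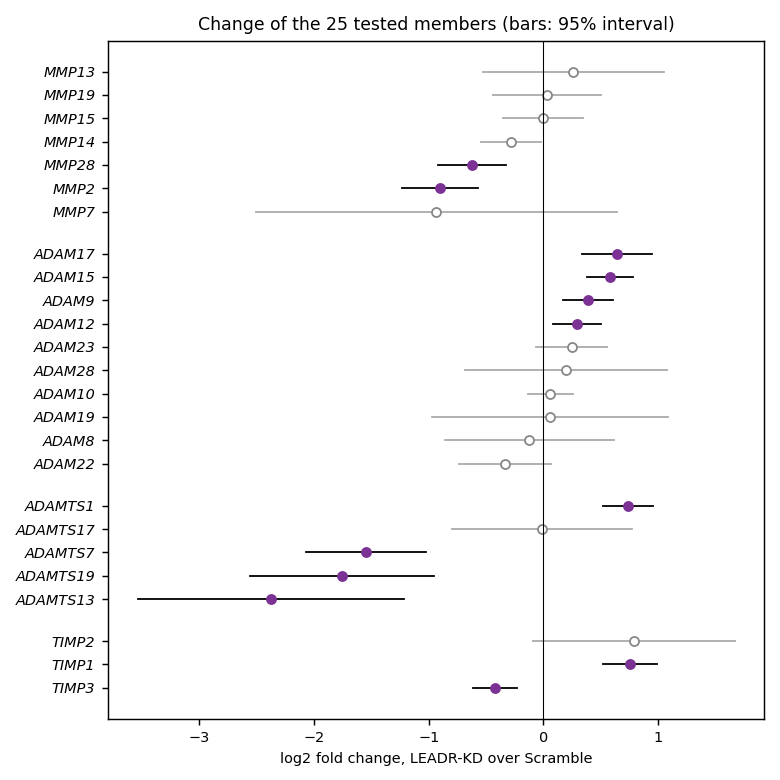
Log2 fold change of LEADR-KD over Scramble for the 25 tested genes, ordered within each family, with bars for the 95% interval. Filled points have an adjusted p under 0.05: 6 lie right of the line at 0 and 6 left of it, and the 3 left of -1 are ADAMTS genes.

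The families stood at very different levels. Per length, in the deposited FPKM summed over members, ADAM genes came to 117 ± 4.20 in Scramble and 146 ± 3.29 in LEADR-KD (SD, n = 3), and the 3 LEADR-KD sums lay above the 3 Scramble sums. MMP genes came to 95.1 ± 11.7 and 77.9 ± 9.71, with overlapping groups. TIMP genes came to 64.2 ± 1.98 and 66.9 ± 3.49, again with overlap. ADAMTS genes were the lowest, at 12.9 ± 0.276 and 19.1 ± 2.32, without overlap. Within 3 of the families 1 gene made up most of the sum in Scramble: *MMP14* gave 81.1% to 82.7% of the MMP level, *ADAMTS1* 83.4% to 85.8% of the ADAMTS level and *TIMP3* 66.9% to 73.8% of the TIMP level. *ADAM10* gave 35.7% to 39.9% of the ADAM level, ahead of *ADAM9* and *ADAM15*.

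**Figure D2:**
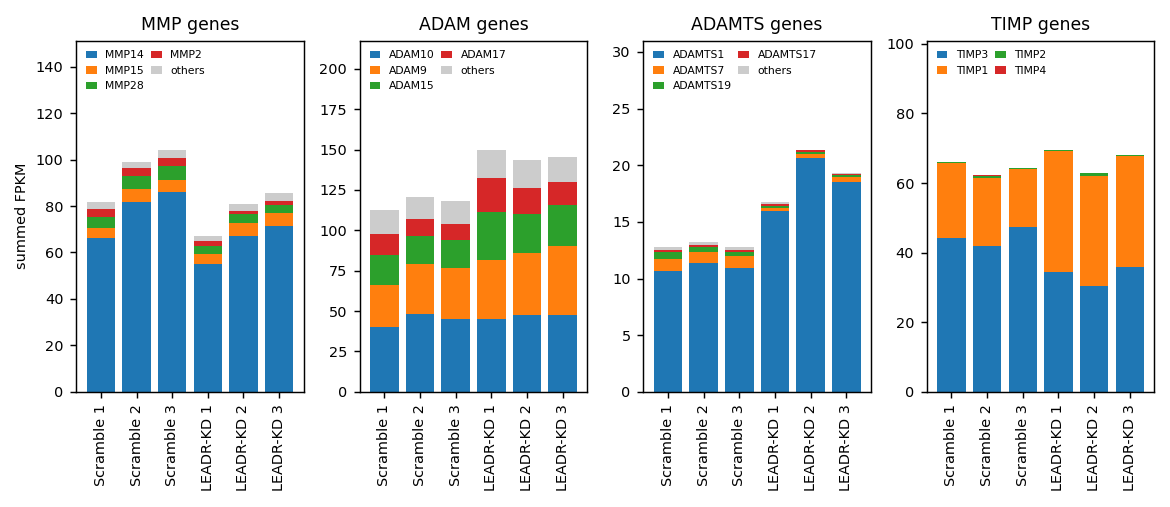
Summed FPKM of each family in each library (y axes differ), stacked by the 4 genes with the highest mean and the rest. The ADAM sum lies between 112 and 121 in Scramble and between 143 and 149.9 in LEADR-KD, and the split of the TIMP sum moves from *TIMP3* towards *TIMP1*.

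**Figure D3:**
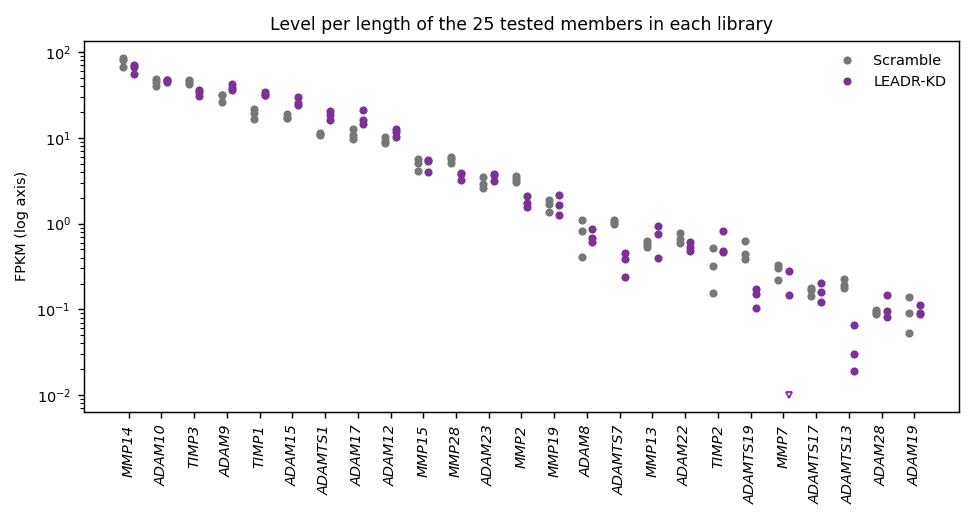
FPKM of the 25 tested genes (log axis) for every library, ordered by the mean over all 6 libraries. *MMP14* is the highest, 9 genes have a mean of at least 5 FPKM, and the open triangle at the bottom marks *MMP7* in LEADR-KD 1, which is listed at 0.

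The inhibitors are described first. *TIMP1* (ENSG00000102265, chromosome X from 47441712 to 47446188), the secreted inhibitor of most MMPs, was at 38.9, 35.3 and 30.1 CPM in Scramble and at 62.0, 57.0 and 57.2 CPM in LEADR-KD. Every LEADR-KD library was above every Scramble library, and the log2 fold change was 0.76 ± 0.11 (SE, adjusted p = 0.000494, edgeR). *TIMP3* (ENSG00000100234, chromosome 22 from 33197687 to 33259030), which binds to the matrix and also blocks ADAM17, was at 206, 195 and 221 CPM in Scramble and at 158, 141 and 165 CPM in LEADR-KD. The groups did not overlap, with a log2 fold change of -0.42 ± 0.09 (SE, adjusted p = 0.00485, edgeR). The ratio of *TIMP1* to *TIMP3* in FPKM went from 0.434 ± 0.0731 to 0.98 ± 0.0790 (SD, n = 3). *TIMP3* was at 44.6 ± 2.75 FPKM in Scramble and 33.5 ± 2.80 in LEADR-KD, and *TIMP1* at 19.2 ± 2.46 and 32.7 ± 1.70. Both thus stood at a similar level per length in LEADR-KD. That similarity depends on the gene lengths in the table, 1790 bases for *TIMP1* and 4603 for *TIMP3*. *TIMP2*, which takes part in the activation of MMP2 at the cell surface, varied most among the tested genes of Scramble, at 1.83, 2.98 and 0.895 CPM, and was at 2.69, 4.62 and 2.61 CPM in LEADR-KD. Its groups overlapped and its log2 fold change of 0.79 had a 95% interval from -0.09 to 1.67 (adjusted p = 0.187, edgeR). *TIMP4* had 2, 4 and 1 counts in Scramble and 0, 2 and 0 in LEADR-KD and was not tested.

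**Figure D4:**
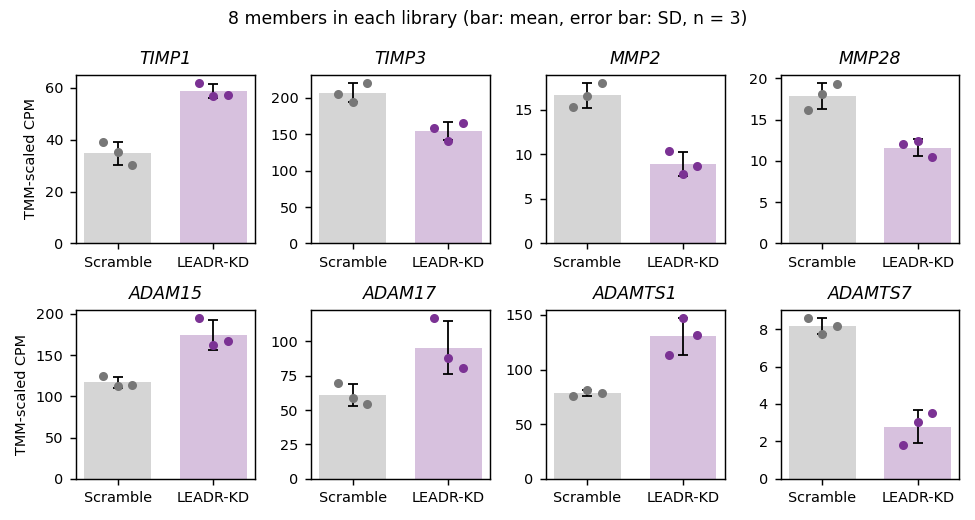
TMM-scaled CPM of 8 genes with an adjusted p under 0.05 in each library, with bars for the mean and error bars for the SD (n = 3). *TIMP1*, *ADAM15*, *ADAM17* and *ADAMTS1* are higher and *TIMP3*, *MMP2*, *MMP28* and *ADAMTS7* lower in each LEADR-KD library than in any Scramble library.

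Of the 7 MMP genes tested, 2 were lower and 0 higher, against 12.1% and 12.2% of all genes tested. The other 5 had no call, and the median log2 fold change was -0.28. The count of 0 higher MMP genes was also 0 by DESeq2 and by limma, adjusted or not. Among 7 genes such a 0 is not read as a trait of the family. *MMP2* (ENSG00000087245, chromosome 16 from 55423612 to 55540603), the gelatinase that cuts denatured collagen and type IV collagen, was at 15.3, 16.5 and 18.0 CPM in Scramble and at 10.3, 7.76 and 8.67 CPM in LEADR-KD. The lowest Scramble library was above the highest LEADR-KD library, and the log2 fold change was -0.90 ± 0.15 (SE, adjusted p = 0.00136, edgeR). *MMP28* (ENSG00000129270, chromosome 17 from 34083268 to 34122711), also called epilysin and made by epithelia, was at 16.1, 18.1 and 19.3 CPM in Scramble and at 12.0, 12.4 and 10.4 CPM in LEADR-KD. Its groups were apart as well, with a log2 fold change of -0.62 ± 0.14 (SE, adjusted p = 0.00664, edgeR). The other gelatinase, *MMP9*, had no count in any library, where 3 counts correspond to 0.158 to 0.191 CPM, a limit that covers counting error only.

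*MMP14* (ENSG00000157227, chromosome 14 from 23305766 to 23318236), the membrane-type enzyme that activates pro-MMP2 and cuts fibrillar collagen, had the highest level per length of all 65 genes, 78.1 ± 10.4 FPKM in Scramble and 64.6 ± 8.43 in LEADR-KD, and lay above 96.0% of all genes tested. It was at 299.3, 367 and 389 CPM in Scramble and at 246, 301 and 320 CPM in LEADR-KD. The groups overlapped, since the lowest Scramble library was below the 2 highest of LEADR-KD, and its log2 fold change of -0.28 (95% interval from -0.54 to -0.02) did not pass after adjustment (adjusted p = 0.110, edgeR). In each group the library numbered 1 was the lowest, and without both of those libraries *MMP14* passed, at an adjusted p of 0.03996, as it did without Scramble 1 alone (0.0395). The ratio of *MMP14* to *MMP2* in FPKM was 21.7, 24.6 and 23.9 in Scramble and 26.3, 43.0 and 40.8 in LEADR-KD.

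The other 4 tested MMP genes did not pass. *MMP15*, another membrane-type enzyme, was at 18.1, 25.4 and 22.6 CPM in Scramble and at 17.7, 24.1 and 24.2 CPM in LEADR-KD, with the library numbered 1 again lowest in each group. Its log2 fold change was 0 to the second decimal, with a 95% interval from -0.35 to 0.35. *MMP19*, at 7.75 ± 1.20 and 7.89 ± 2.10 CPM (SD, n = 3), and the collagenase *MMP13*, at 1.66 ± 0.126 and 1.98 ± 0.781 CPM, had log2 fold changes of 0.03 and 0.26. *MMP7* (matrilysin), a small secreted MMP of glandular epithelia, had 13, 10 and 12 counts in Scramble and 0, 12 and 6 in LEADR-KD, and its log2 fold change of -0.94 had a 95% interval from -2.51 to 0.64 (adjusted p = 0.389, edgeR). The collagenase *MMP1* had 0, 6 and 6 counts in Scramble and 0, 4 and 5 in LEADR-KD, so that the libraries numbered 1 were at 0 in both groups.

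Of the 10 ADAM genes tested, 4 were higher and 0 lower, against 12.2% and 12.1% of all genes tested. The other 6 had no call, and the median log2 fold change was 0.22. All 4 higher genes have a catalytic zinc site, as do 8 of the 10. The count of 0 lower ADAM genes was also 0 by DESeq2 and by limma, and stayed 0 at an unadjusted p under 0.05 by each tool. Among 10 genes such a 0 is not read as a trait of the family. *ADAM17* (ENSG00000151694, chromosome 2 from 9628615 to 9695921), the sheddase of TNF and of several ligands of the EGF receptor, was at 70.0, 58.9 and 54.2 CPM in Scramble and at 117, 88.2 and 80.8 CPM in LEADR-KD. The log2 fold change was 0.64 ± 0.14 (SE, adjusted p = 0.00634, edgeR) and the groups did not overlap. *ADAM10* (ENSG00000137845, chromosome 15 from 58887403 to 59042177), the sheddase of Notch receptors and of E-cadherin, was at 350.3, 419 and 395 CPM in Scramble and at 390.1, 414 and 409 CPM in LEADR-KD. Its groups overlapped, and its log2 fold change of 0.06 had a 95% interval from -0.14 to 0.25 (adjusted p = 0.680, edgeR). The ratio of *ADAM10* to *ADAM17* in FPKM went from 4.11 ± 0.807 to 2.77 ± 0.581 (SD, n = 3), and the ratios of the 2 groups overlapped by 1 library each.

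*ADAM15* (ENSG00000143537, chromosome 1 from 155023042 to 155035252), whose disintegrin domain binds integrins, was at 125, 113 and 114 CPM in Scramble and at 195, 162 and 166 CPM in LEADR-KD. All LEADR-KD libraries were above all Scramble libraries, with a log2 fold change of 0.58 ± 0.09 (SE, adjusted p = 0.000935, edgeR). *ADAM9* (ENSG00000168615, chromosome 8 from 38854388 to 38962663), a broadly expressed sheddase, was at 181, 218 and 221 CPM in Scramble and at 250.4, 266 and 298 CPM in LEADR-KD. Its log2 fold change was 0.39 ± 0.10 (SE, adjusted p = 0.0147, edgeR), and it lost the call once LEADR-KD 3 was dropped (adjusted p = 0.0617). *ADAM12* (ENSG00000148848, chromosome 10 from 127700950 to 128077024), known from muscle, placenta and many tumours, was at 101, 91.4 and 87.2 CPM in Scramble and at 124, 116 and 102 CPM in LEADR-KD. Its groups were apart by less than 1 CPM, and its log2 fold change of 0.29 ± 0.10 (SE) was next to the threshold (adjusted p = 0.0478, edgeR). It did not pass without Scramble 2, without Scramble 3, without LEADR-KD 1 or without LEADR-KD 2, and over all alternatives its adjusted p ranged from 0.00406 to 0.154.

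Of the 6 ADAM genes that did not pass, *ADAM22* and *ADAM23* lack a catalytic site and are known as receptors of LGI proteins in the brain. *ADAM23* was at 17.0, 18.5 and 22.6 CPM in Scramble and at 20.0, 24.1 and 24.7 CPM in LEADR-KD (log2 fold change 0.25, 95% interval from -0.06 to 0.55). *ADAM22* was at 7.24, 9.60 and 8.24 CPM and at 6.51, 7.59 and 5.83 CPM (log2 fold change -0.33, 95% interval from -0.73 to 0.07). Both overlapped between the groups. *ADAM8*, *ADAM19* and *ADAM28* were low, between 0.731 and 3.77 CPM on average, with 95% intervals that reach beyond 0.5 on both sides of 0. *ADAM19* had 77 counts in all and overlaps *NIPAL4* on the other strand, which had 7911 counts and a log2 fold change of -1.26 (adjusted p = 9.86e-06, edgeR). *ADAM17* overlaps *IAH1*, with 2137 counts against 8143 for *ADAM17*, and the log2 fold change of *IAH1* was -0.13 (adjusted p = 0.530, edgeR).

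The ADAMTS genes moved in both directions. Among the 5 tested, 3 were lower, 1 higher and 1 without a call, and 1 of the 3, *ADAMTS13*, was tested only through its level in Scramble. The shares over all genes tested were 12.1% lower and 12.2% higher. *ADAMTS1* (ENSG00000154734, chromosome 21 from 28208066 to 28217728), which cuts the proteoglycans aggrecan and versican, was at 76.0, 80.9 and 78.3 CPM in Scramble and at 113, 147 and 131 CPM in LEADR-KD. The Scramble libraries lay close together and the LEADR-KD libraries well above them, with a log2 fold change of 0.73 ± 0.10 (SE, adjusted p = 0.000340, edgeR). Its share of the ADAMTS level was 95.6% to 96.6% in LEADR-KD, against 83.4% to 85.8% in Scramble.

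*ADAMTS7* (ENSG00000136378, chromosome 15 from 79051545 to 79103773), which cuts cartilage oligomeric matrix protein, was at 8.60, 7.75 and 8.18 CPM in Scramble and at 1.82, 3.03 and 3.51 CPM in LEADR-KD. The lowest Scramble library was over 2-fold above the highest LEADR-KD library, with a log2 fold change of -1.54 ± 0.24 (SE, adjusted p = 0.000777, edgeR). Its counts have 2 limits, since it has near-identical pseudogene copies, and it overlaps *MORF4L1* on the other strand, with 37003 counts against 580 for *ADAMTS7*. *MORF4L1* itself had a log2 fold change of 0.13 (adjusted p = 0.386, edgeR). *ADAMTS19* (ENSG00000145808, chromosome 5 from 128795958 to 129074376), a little-studied member of the family, had 58, 47 and 35 counts in Scramble and 15, 15 and 10 in LEADR-KD. Its log2 fold change was -1.76 ± 0.37 (SE, adjusted p = 0.00495, edgeR), on a level under 1 FPKM in both groups. *ADAMTS13* (ENSG00000160323, chromosome 9 from 136279478 to 136324508), the protease that cuts von Willebrand factor in plasma, had 19, 25 and 17 counts in Scramble and 6, 2 and 3 in LEADR-KD. Its log2 fold change was -2.38 ± 0.53 (SE, adjusted p = 0.00726, edgeR), but only the 3 Scramble libraries reached the 0.568 CPM that the filter asks for, so its presence among the tested genes came from the group in which it was high. *VWF*, which encodes its substrate, was lower as well, as given with the endothelial markers, and 12.1% of all genes tested were lower. A relation between the changes of *VWF* and *ADAMTS13* was not tested. *ADAMTS13* also overlaps *REXO4* on the other strand, which had 4021 counts against 72. *ADAMTS17*, at 1.27 ± 0.138 CPM in Scramble and 1.26 ± 0.302 in LEADR-KD (SD, n = 3), had a log2 fold change of -0.02 with a 95% interval from -0.80 to 0.77.

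Of the 40 genes that were not tested, *ADAM11*, *MMP24* and *MMP10* had the most counts. *ADAM11*, a catalytically inactive ADAM of the nervous system, had 19, 16 and 8 counts in Scramble and 6, 7 and 5 in LEADR-KD. *MMP24*, a membrane-type MMP, had 10, 11 and 5 against 2, 8 and 2. *MMP10* (stromelysin-2) had 6, 6 and 8 against 0, 2 and 2. The 19 genes without a count in any library were *MMP8*, *MMP9*, *MMP20*, *MMP21*, *MMP26* and *MMP27*, *ADAM2*, *ADAM18*, *ADAM29*, *ADAM30* and *ADAM33*, and *ADAMTS2*, *ADAMTS3*, *ADAMTS4*, *ADAMTS8*, *ADAMTS10*, *ADAMTS12*, *ADAMTS16* and *ADAMTS18*. In a single library a count of 0 allows up to 3 counts, and a 0 in all 6 sets a tighter limit. It says only that no read was assigned to the gene at this depth.

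Several MMP genes lie side by side on chromosome 11, in hg19 from 102391239 to 102826463, and are known to be induced together in wounds and inflammation. Of the 65 genes 8 lie in this stretch, and genes outside the 65, such as *MMP12*, were not counted. Of these 8, 5 had any count: *MMP13* with 192 over all libraries, *MMP7* with 53, *MMP10* with 24, *MMP1* with 21 and *MMP3* with 7. The proximal promoters of *MMP7* and *MMP10* are shown, and were picked because they hold the letters of AP-1 and TATA elements. They are the 80 bases before the transcription start in RefSeq (GRCh38.p14), both on the minus strand, with the AP-1 letters TGANTCA and the TATA letters TATAAA in capitals.
*MMP7*, chr11:102530748-102530827: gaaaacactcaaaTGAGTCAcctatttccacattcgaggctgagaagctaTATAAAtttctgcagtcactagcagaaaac
*MMP10*, chr11:102780629-102780708: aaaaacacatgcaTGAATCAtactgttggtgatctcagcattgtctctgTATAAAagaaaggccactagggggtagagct
In both, the AP-1 letters begin 67 bases before the start. RefSeq promoters (from upstream of the start to just past it) were matched for 39 of the 65 genes, in 40 promoters, and both strands were searched. AP-1 letters were found in 4 of the 40 (*MMP7*, *MMP10*, *MMP20* and *ADAMTS12*) and in 7.71% of all 35116 promoters, TATA letters in 8 of the 40 and in 11.5% of all, and the GC box GGGCGG in 26 of the 40 and in 45% of all. Among the 17 promoters of tested members, AP-1 letters were in 1, TATA letters in 1 and the GC box in 15, against 5.31%, 6.26% and 65.5% of the promoters of all tested genes. Of the other genes in the stretch on chromosome 11, *MMP20* held AP-1 and TATA letters, *MMP8* TATA letters alone and *MMP27* neither. No promoter was matched for *MMP1*, *MMP3* and *MMP13*. A match of letters is not a bound site.

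The seed of the siRNA was looked for in the 3′ UTRs of the GENCODE annotation (GRCh37). Of the 25 tested genes 24 had a 3′ UTR there. A match was counted where the 3′ UTR held the complement of all 7 seed bases, or that of bases 2 to 7 followed by an A, whether or not this A pairs with base 1. For the listed strand 4 of the 24 held one, and none of the 4 passed the test. *MMP14* held the complement of all 7 seed bases (ACCCAGT), whereas *ADAM19*, *ADAM28* and *ADAMTS17* held that of 6 followed by an A (CCCAGTA), which does not pair with the first base of this strand. A match of either kind was found in 0 of 5 lower and 0 of 6 higher members. *MMP28*, also lower, was the gene without a 3′ UTR there. Among the lower members *TIMP3* held the complement of bases 2 to 7 alone, which was not counted. The 3′ UTRs of *ADAMTS13* and *ADAMTS7* were only 206 and 215 bases long. Among so few genes such a 0 is not read as a trait of the members. Among all tested genes with a 3′ UTR the share with either kind was 17.8%, with 34.3% among lower genes, 13.3% among higher genes and 15.7% among those that did not pass. For the complementary strand 3 of the 24 held a match, *ADAM12*, *ADAM22* and *MMP13*, each to all 7 seed bases, against 13.4% of all tested genes with a match of either kind. The sites below are shown to let the match be read, with the matching letters in capitals. In *MMP14* the match is to the listed strand, in the other 3 to the complementary strand, whose seed is assumed.
*MMP14*, chr14:23316631-23316659, plus strand: gggagagtgagACCCAGTggagggagcaa
*ADAM12*, chr10:127701360-127701389, minus strand: tagtagggcagATATAGGAaaaacaaatta
*ADAM22*, chr7:87826281-87826310, plus strand: agggctaaggcATATAGGAtttttctgcag
*MMP13*, chr11:102814079-102814107, minus strand: ttgtcttggatATATAGGctattttctaa
*ADAM12* was higher in LEADR-KD, and the other 3 did not pass. Whether any of these sites takes part in a value was not tested.

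The genes around these proteases were described by 5 lists. The counts of each stand beside 12.2% higher and 12.1% lower over all genes tested, and no list was tested as a set. Of 15 partners of ADAM10 and ADAM17 14 were tested, with 1 higher, 2 lower and 11 not passing, and a median log2 fold change of 0.09. *TSPAN14*, a tetraspanin that carries ADAM10 to the cell surface, fell by 0.50 ± 0.08 on the log2 scale (SE, adjusted p = 0.000691, edgeR), and *SH3D19*, a binding protein of ADAM cytoplasmic tails, by 0.49 ± 0.09. *PDIA6*, a protein disulfide isomerase, was higher with a log2 fold change of 0.35. The rhomboid-like proteins *RHBDF1* and *RHBDF2*, which carry ADAM17, and *FRMD8*, which stabilises them, did not pass.

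Of 29 activators and other inhibitors 20 were tested, with 6 higher, 1 lower and 13 not passing, and a median of 0.17. The highest changes were those of *PCSK5*, a proprotein convertase, from 1.07 ± 0.431 to 2.88 ± 0.216 CPM (log2 fold change 1.43), and of *PLAUR*, the urokinase receptor, from 3.48 ± 0.642 to 9.03 ± 3.01 CPM (1.37), both low in level. *FURIN*, the convertase that activates pro-MMP14 and pro-ADAMs, was at 88.7 ± 6.99 CPM in Scramble and 122 ± 11.7 in LEADR-KD (SD, n = 3), a log2 fold change of 0.46 ± 0.10 (SE, adjusted p = 0.00485, edgeR). *TFPI2*, an inhibitor of plasmin and some MMPs, had a log2 fold change of 0.62 (adjusted p = 0.0480, edgeR) and lost its call in each of the 6 fits that dropped 1 library, with an adjusted p from 0.0565 to 0.168. *TMPRSS2*, a membrane serine protease, was the lower one, at 66.9 ± 4.78 and 39.9 ± 5.18 CPM (SD, n = 3), a log2 fold change of -0.75.

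Of 39 substrates shed by these enzymes 31 were tested, with 4 higher, 4 lower and 23 not passing, and a median of 0.05. The higher genes were *EREG*, a ligand of the EGF receptor, at 0.708 ± 0.323 CPM in Scramble and 3.49 ± 0.986 in LEADR-KD (log2 fold change 2.31), the adhesion molecules *ALCAM* (1.23) and *CDH1* (1.11), and the hyaluronan receptor *CD44* (0.45). *CDH1*, which encodes E-cadherin, was at 315 ± 15.7 and 680.2 ± 58.5 CPM. The lower genes were the receptors *NOTCH2*, which fell by 2.33 on the log2 scale from 259 ± 14.3 to 51.5 ± 3.43 CPM, and *NOTCH1*, which fell by 0.82, the proteoglycan *SDC1*, which fell by 1.23, and the growth factor *TGFA*, which fell by 0.44 and lost its call once Scramble 2 was dropped (adjusted p = 0.0546, edgeR). RNA levels say nothing of how much of these proteins was shed.

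Of 25 substrates in the extracellular matrix 13 were tested, with 1 higher, 1 lower and 11 not passing, and a median of -0.10. *FBLN1*, a fibulin of the basement membrane and a cofactor of ADAMTS1, was at 1508 ± 119 CPM in Scramble and 1966 ± 118 in LEADR-KD (SD, n = 3), with a log2 fold change of 0.38 (adjusted p = 0.0277, edgeR), and *COL17A1*, a hemidesmosomal collagen, was at 54.2 ± 3.38 and 43.3 ± 2.01 CPM (-0.33, adjusted p = 0.0250, edgeR). Each lost its call without Scramble 2, LEADR-KD 1 or LEADR-KD 2, and *FBLN1* also without Scramble 3, with adjusted p up to 0.0966 for *FBLN1* and 0.104 for *COL17A1*.

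All 23 of the transcription factors known from MMP promoters were tested, with 6 higher, 3 lower and 14 not passing, and a median of 0.15. *FOSL2*, an AP-1 subunit, had the largest change and fell by 0.87 on the log2 scale, from 372 ± 6.68 to 202.9 ± 16.1 CPM. The other AP-1 subunits that passed were *JUN*, from 26.1 ± 4.37 to 43.1 ± 13.4 CPM (log2 fold change 0.73, groups overlapping), and *JUNB* (0.51). Both lost the call without Scramble 1, LEADR-KD 2 or LEADR-KD 3, and *JUN* also without Scramble 2, with adjusted p up to 0.126 and 0.140 for *JUN* and *JUNB*. *TEAD4* (0.69) and *RUNX2* (0.67) were also higher. The ETS family members that passed went both ways, with *ETV5* (0.49) and *ETV4* (0.41) higher and *ELF3* (-0.51) and *ETS1* (-0.35) lower. The call of *ETV5* was lost once Scramble 1, LEADR-KD 1 or LEADR-KD 3 was dropped, with an adjusted p of up to 0.0984 (edgeR), and that of *ETV4* once LEADR-KD 2 was dropped (0.0719).

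**Figure D5:**
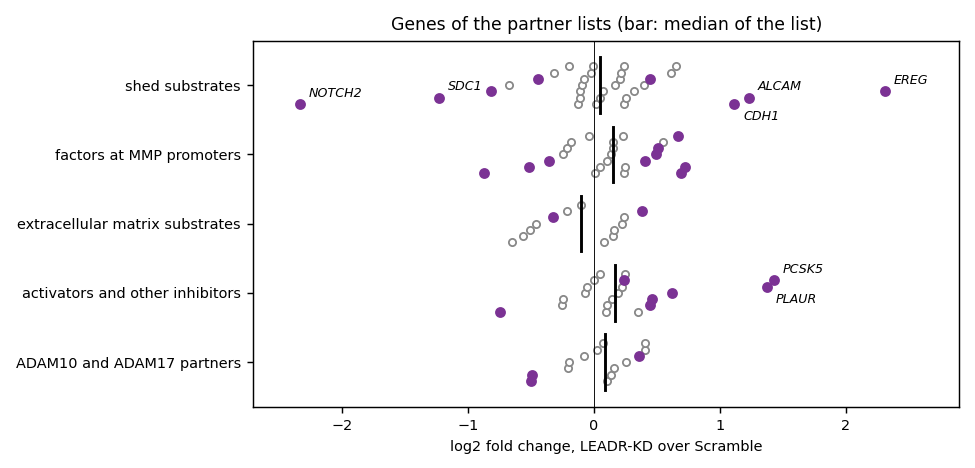
Log2 fold change of LEADR-KD over Scramble for the tested genes of the 5 lists, with a bar for each list's median and filled points for an adjusted p under 0.05. The medians lie between -0.10 and 0.17, and only shed substrates and activators hold genes beyond 1 in size.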

How the data were processed

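Poly(A) RNA of RT4 cells was measured in 6 libraries, which were assigned to Scramble (n = 3) and LEADR-KD (n = 3) by their labels. The authors deposited raw counts per gene, and FPKM values in which counts are divided by gene length and library size. The submitters' processing notes name HISAT2 2.0.5, featureCounts 1.5.0-p3, DESeq2 1.20.0 and hg19, whereas the methods name Salmon. The kit was directional, and whether the counting used strand is not stated in the sources at hand. Genes overlapping on opposite strands may therefore share reads. The last deposited table holds log2 fold changes and p-values of the authors' own comparison and was not used.

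Tests were run over the whole table, of which the 65 genes are a part. Counts were scaled by TMM and filtered by filterByExpr (minimum count 10), and the 2 groups were tested against each other by the quasi-likelihood test of edgeR 4.0.16 in R 4.3.3, without covariates and with Benjamini-Hochberg adjustment over 14178 genes. A gene is called higher or lower at an adjusted p under 0.05. SEs were taken as |log2 fold change| over the root of F. Levels of different genes were compared in FPKM only, and so depend on the gene lengths used there. Alternatives were DESeq2 1.42.0, limma 3.58.1 on log2(FPKM + 1) or log2(FPKM + 0.1), other scalings and filters, a replicate block and leaving out libraries. The edgeR steps were tested on simulated data. Counting floors cover counting error only. The intervals of the log2 fold changes were built from the SEs of the edgeR test, and so include the spread among libraries.

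Seeds were searched in 3′ UTRs of GENCODE release 44 canonical transcripts lifted to GRCh37. *MMP28* could not be matched there.

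The genes and the 5 lists were chosen with earlier results of these data known. Named were *MIR205HG*, each gene of the 4 families with an adjusted p under 0.05 or at least 5 FPKM, all TIMP genes, the 5 tested genes with the smallest p that did not pass, the 3 untested genes with the most counts, and up to 4 genes per list and direction by size of change. Other genes were named after their values were seen, for family, position, overlap or as markers.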

Additional observations from a re-analysis of the deposited data

How the results depend on the processing

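Over 16 alternatives, 3 to 7 of the 25 tested genes were higher and 5 to 7 lower, and the direction of the 12 called genes was reversed in 0 of 191 fits. The call was kept in 177 of them and lost in 14, and 8 of the 12 genes never lost it. Of the 14 losses 9 were of *ADAM12*, 3 of *ADAM9* and 1 each of *ADAM17* and *ADAMTS19*. *ADAMTS13* was not tested at a mean of at least 1 CPM. On log2(FPKM + 1), 0 genes were lower by a fold over 2, with and without the filter, since the pseudocount shrinks changes of low genes. Without the filter on that scale, 3 genes were higher and *MIR205HG* fell by 1.16 (adjusted p = 0.0507, limma), and 2 activators, 2 promoter factors, 0 matrix substrates were higher and 0 matrix substrates lower, while over all genes 3.53% were higher and 3.29% lower. When single libraries were left out, 5 to 6 of the tested genes were higher, 6 to 7 lower, 0 higher by a fold over 2 and 3 to 4 lower by that fold, with 8.23% to 9.99% of all genes higher and 7.91% to 10.1% lower. *MMP14* passed without Scramble 1 (adjusted p = 0.0395) and with no filter on low counts (0.0396).

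The number of genes called in the lists moved more. Leaving out single libraries gave 1 to 3 higher ADAM10 and ADAM17 partners, 4 to 6 higher and 1 to 2 lower activators and inhibitors, 0 to 1 higher and 0 to 2 lower matrix substrates, 3 to 6 higher promoter factors, and 4 to 7 higher and 3 to 5 lower shed substrates. Without both libraries numbered 1 there were 2 higher partners, 2 lower activators, and 0 higher and 0 lower matrix substrates (all genes: 9.98% higher, 10.9% lower). DESeq2 gave 2 higher partners and 2 lower matrix substrates (all genes: 13.2% and 12.5%), and no filter gave 3 higher partners, 2 lower matrix substrates and 8 higher shed substrates (7.30% and 6.95% of 25957 genes). Library totals as the only scaling gave 2 higher promoter factors, with 1085 higher genes in all against 1736. The causes of these shifts were not tested.

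With the replicate block, 7 of the tested genes were higher and 7 lower, the 2 added being *TIMP2* (adjusted p = 0.0409) and *MMP14* (0.00392), and in the lists 4 partners, 9 shed substrates were higher and 2 activators, 2 matrix substrates and 5 promoter factors lower. The block raised calls over all genes too, to 17.6% higher and 16.7% lower from 12.2% and 12.1%. The numbers were not taken to pair the libraries, since the study's methods state no pairing. Deviations from the group means correlated at 0.227, 0.000580 and 0.266 between libraries numbered 1, 2 and 3. Between libraries of unlike number they correlated at -0.296 to 0.0755, below the values for 1 and 3. Scramble 2 correlated better with LEADR-KD 1 (0.0332) than with LEADR-KD 2. Whether the libraries are paired is therefore not settled here. At this depth a gene needed 0.568 CPM in 3 libraries to be tested.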
